A study of Mus musculus with 6 samples.

Results

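The RNA of 10 transcription regulators of late male meiosis and spermatid development was followed in mouse testis cells. They are Mybl1, Tcfl5, Zfp541, Kctd19, Rfx2, Sox30, Crem, Brdt, Taf7l and Tbpl1, and they make up 10 of the 54532 genes in the deposited tables. They were taken by name as known regulators, by a rule that used no measured value, but with earlier results of these data known. All 10 were found under their symbols in the GENCODE M21 annotation (GRCm38), and all 10 passed the filter on low values. The cells were labelled as pachytene cells, male germ cells in the longest stage of meiotic prophase, and had been isolated from testis by STA-PUT sedimentation at about postnatal day 80. In KO most pachytene markers were lower and somatic cell markers higher than in WT, as given below. There were 3 groups of 2 RNA-seq libraries each. WT is the wild type, KO is the MAPS knockout (MAPS-/-), and EE_KO (MAPSEE;MAPS-/-) carries the same knockout and is labelled as overexpression of MAPS in that background. MAPS is a protein of male pachytene cells, and no other altered gene is named. Each group drew on 3 mice of identical genotype, in 2 independent experiments. The labels do not say which mice went into which library, what the letters EE stand for or which promoter drives MAPS in EE_KO, so the p-values below cover only how far these libraries vary, which may be technical.

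In the testis, the genes needed for sperm are switched on in waves, and each wave has its own regulators. A-MYB, the product of Mybl1, drives the burst of transcription at pachytene, including pachytene piRNA precursors, and TCFL5 acts beside it. ZFP541 and KCTD19 sit with histone deacetylases in a complex needed to leave pachytene, while RFX2, SOX30 and CREM turn on genes of cilia and spermatids. BRDT reads acetylated histones, and TAF7L and TBPL1 are germ cell relatives of parts of the basal transcription machinery.

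In KO, 9 of the 10 regulators fell and 1 rose, where 48.1% of all genes tested fell and 38.0% rose. That balance turned with the scaling: rises were 44.1% of the calls on the deposited scale, 53.2% on the TPM scale, 51.0% with quantile normalization and 52.0% when libraries were scaled to the meiotic genes Sycp1 and Sycp3, while the 10 regulators kept 9 falls and 1 rise under each. The fallen genes kept between 4.37% (Rfx2) and 36.6% (Mybl1) of their WT level, and Taf7l, the only X-linked gene of the set, rose 7.07-fold. In EE_KO every regulator lay between 88.1% (Zfp541) and 118% (Mybl1) of WT, and none was called different from WT, as 0.0456% of all genes were. Levels are given in FPKM (fragments per kilobase of exon and per library size, as deposited), which is per length and so can be set side by side between genes. Changes are on the log2(FPKM + 1) scale with the standard error (SE) of limma, and a gene was called when its p, adjusted by Benjamini-Hochberg over the 15365 genes tested, was below 0.05.

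The libraries held 14178384 to 16565245 reads on genes, recovered from the FPKM and the exon lengths. The MAPS gene, 1700102P08Rik, stood at 157 and 150.2 FPKM in WT, at 7.97 and 10.1 in KO and at 109 and 82.2 in EE_KO. Although EE_KO is labelled as overexpression, its mean was 62.1% of WT, which was not called (log2 change -0.70, SE 0.16, limma adjusted p = 0.254) but was called lower when libraries were scaled to Sycp1 and Sycp3 (log2 change -0.84, adjusted p = 0.0178). The KO cells also differed from WT in cell type markers. The summed FPKM of 10 Sertoli cell markers was 341 and 349 in WT, 5001 and 4755 in KO, and 554 and 293 in EE_KO. The sum over 7 Leydig cell markers was 54.5 and 103 in WT, 2176 and 2092 in KO, and 173 and 79.3 in EE_KO. All 10 and all 7 rose in KO, where 38.0% of all genes tested rose. Of the 8 spermatogonia markers 6 passed the filter, and of the 8 peritubular and leukocyte markers 3, C1qa and Cd14 among them through their KO level alone. The sums over all 8 went from 20.8 and 22.4 in WT to 188 and 229 in KO for spermatogonia, and from 2.71 and 2.69 to 26.4 and 23.7 for peritubular cells and leukocytes (in EE_KO 23.9 and 19.3, and 5.82 and 3.33), with C1qa listed at 0 in both WT libraries. Not every marker of these cells was higher in KO: below the filter, Gfra1, a receptor of undifferentiated spermatogonia, stood at 0.926 and 1.23 FPKM in WT and 0.518 and 0.347 in KO, and the KO mean of Adgre1, a macrophage gene, was 79.1% of WT. Of 10 pachytene markers, 9 fell in KO, where 48.1% of all genes tested fell. The sum of the 10 was 217 and 263 in KO against 5226 and 4786 in WT. The synaptonemal complex genes Sycp1 and Sycp3, 2 of these 10 markers, were present in all 6 libraries. In KO they kept 87.6% and 66.2% of WT, the most of the 10, whose median was 2.86%. Both are made from early prophase on, so their presence does not mark pachytene alone. The part of the cell makeup in the changes below was not tested, and in these bulk libraries fewer cells of a type and less RNA per cell cannot be told apart.

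Promoters of 7 of the 10 genes were found in a RefSeq table (GRCm38.p6), and the 4 shown are those that held a match to a motif searched; the other 3 held none. The letters run 5′ to 3′ on the gene's own strand and end at the last base before the annotated gene. Capitals mark matches, on either strand, to CAACNG (a MYB element), CACGTG (an E-box, the kind of site that basic helix-loop-helix factors bind) or GTTGCC (the core of an RFX motif).
Tcfl5, chr2:180642709-180642941, minus strand: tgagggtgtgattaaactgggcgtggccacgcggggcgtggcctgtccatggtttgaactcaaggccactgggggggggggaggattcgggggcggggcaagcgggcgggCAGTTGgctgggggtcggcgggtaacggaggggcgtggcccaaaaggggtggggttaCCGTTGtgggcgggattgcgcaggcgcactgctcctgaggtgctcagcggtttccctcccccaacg
Rfx2, chr17:56831014-56831258, minus strand: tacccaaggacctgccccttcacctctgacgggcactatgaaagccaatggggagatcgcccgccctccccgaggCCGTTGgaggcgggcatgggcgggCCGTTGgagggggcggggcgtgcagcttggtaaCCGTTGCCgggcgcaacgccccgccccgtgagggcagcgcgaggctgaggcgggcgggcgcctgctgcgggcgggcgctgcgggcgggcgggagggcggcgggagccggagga
Brdt, chr5:107330944-107331158, plus strand: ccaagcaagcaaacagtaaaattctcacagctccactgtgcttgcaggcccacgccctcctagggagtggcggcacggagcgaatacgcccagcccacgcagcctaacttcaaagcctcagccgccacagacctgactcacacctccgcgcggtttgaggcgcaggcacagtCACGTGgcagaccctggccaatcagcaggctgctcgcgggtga
Taf7l, chrX:134476491-134476740, minus strand: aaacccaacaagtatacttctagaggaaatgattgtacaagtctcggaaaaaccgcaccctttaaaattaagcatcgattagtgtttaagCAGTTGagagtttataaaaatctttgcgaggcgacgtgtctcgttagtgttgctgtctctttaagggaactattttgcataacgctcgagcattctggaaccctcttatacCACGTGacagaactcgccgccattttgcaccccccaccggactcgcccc

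In the 250 bases before the RefSeq start, CAACNG was found 3 times at Tcfl5, 3 times at Rfx2 and 1 time at Taf7l, and in 29.3% of all 32851 promoters in the table. One of the 3 matches at Tcfl5 runs past the end of the stretch shown. CACGTG was found at Brdt and Taf7l, and in 6.02% of all promoters. GTTGCC was found only at Rfx2 among the 7, where it overlaps the third MYB element, and in 10.4% of all promoters. TGACGTCA, the cAMP response element (1.55% of all promoters), and AACAAT, a SOX core (9.42%), had no match in the 7. The promoter of Taf7l, the gene that rose, thus held a MYB element and an E-box as well. A match is a stretch of letters and not a site shown to be bound.

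Mybl1 (ENSMUSG00000025912, chr1:9667415-9700209, minus strand) encodes A-MYB. It stood at 30.1 and 22.6 FPKM in WT, at 10.3 and 8.94 in KO and at 28.6 and 33.5 in EE_KO, from 839 to 2706 reads. The KO libraries lay below all others, and the WT and EE_KO libraries overlapped. The mean fell from 26.3 ± 5.28 in WT to 9.63 ± 0.979 in KO (SD, n = 2 libraries), a log2 change of -1.35 (SE 0.16, limma adjusted p = 7.87e-05). This was the smallest fall among the 9. In EE_KO the mean was 31.1 ± 3.41.

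Tcfl5 (ENSMUSG00000038932, chr2:180621956-180642708, minus strand), a basic helix-loop-helix factor of germ cells, lay above 98.6% of the genes tested in WT, at 196 and 181 FPKM. KO stood at 11.4 and 13.7 and EE_KO at 186 and 208. The KO libraries were far below the other 4, which overlapped between groups. The KO mean of 12.6 ± 1.66 was 6.68% of the WT mean of 188 ± 10.4, a log2 change of -3.81 (SE 0.12, limma adjusted p = 1.11e-07). EE_KO stood at 197 ± 15.5.

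The A-MYB pathway was read through 9 genes that A-MYB is known to activate. In KO 8 of the 9 fell and none rose, where 48.1% of all genes tested fell. Their median log2 change was -3.27, against -0.29 over all genes tested. Piwil1, the PIWI protein that carries pachytene piRNAs, went from 300.8 and 300.7 FPKM in WT to 6.55 and 9.18 in KO (log2 change -5.10, SE 0.15). Tdrd6, a tudor protein of the germ granule, had a log2 change of -5.59 (SE 0.11), Mael of -3.89 (SE 0.13) and Pld6 of -3.64 (SE 0.14). The exception was Mov10l1, the helicase that binds piRNA precursors, at 36.5 and 36.5 FPKM in WT and 30.3 and 36.1 in KO (log2 change -0.14, adjusted p = 0.287). Under quantile normalization that gene was called higher in KO (log2 change 0.47). Mybl2, the relative of Mybl1 that acts in dividing cells, was not called in KO (log2 change -0.16, SE 0.18), at 2.78 and 4.08 FPKM in WT and 2.87 and 2.98 in KO. Myb itself was below the filter. Of the 9 targets, Piwil1, Mael and H1f6 are also among the pachytene markers.

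Zfp541 (ENSMUSG00000078796, chr7:16061814-16096334, plus strand) encodes a zinc finger protein with an ELM2 and a SANT domain. Its levels were 134 and 118 FPKM in WT, 11.03 and 10.88 in KO and 111.1 and 110.6 in EE_KO. Both EE_KO libraries lay just under both WT libraries, and KO was far below. The KO mean of 10.95 ± 0.109 was 8.71% of the WT mean of 126 ± 11.5 (log2 change -3.40, SE 0.11, limma adjusted p = 8.90e-08). The EE_KO mean of 111 ± 0.333 was 0.18 below WT on the log2 scale, with a 95% interval from -0.42 to 0.07.

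Kctd19 (ENSMUSG00000051648, chr8:105382807-105413502, minus strand) encodes the BTB domain partner of ZFP541 and had the highest level of the 10 in WT. It stood at 302 and 269 FPKM in WT, at 14.5 and 14.9 in KO and at 243 and 268 in EE_KO. The EE_KO libraries again lay under WT, by a narrow margin in the higher of them. The mean fell from 285 ± 23.2 to 14.7 ± 0.257, which is 5.16% of WT (log2 change -4.18, SE 0.11, limma adjusted p = 6.36e-08). The EE_KO mean was 256 ± 17.6.

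The partners of this pair did not move as a block. Hdac1 went from 74.9 and 70.5 FPKM in WT to 18.4 and 22.9 in KO (log2 change -1.77, SE 0.13) and stood at 46.9 and 52.0 in EE_KO. It was the partner with the lowest EE_KO level relative to WT, 68.1%, which was not called (log2 change -0.55, limma adjusted p = 0.275) but was called when libraries were scaled to Sycp1 and Sycp3 (adjusted p = 0.0498). Hdac2, the other histone deacetylase of the complex, rose in KO, from 10.17 and 10.04 FPKM to 25.1 and 27.2 (log2 change 1.29, SE 0.11). Dnttip1, a further subunit of the complex, stood at 13.4 and 14.9 FPKM in WT and 12.1 and 11.5 in KO and was not called (log2 change -0.24, adjusted p = 0.115). Mideas, an ELM2 and SANT protein that holds the like place in the somatic form of the complex, rose in KO, from 0.328 and 0.556 FPKM to 3.67 and 3.34 (log2 change 1.65, SE 0.16). With a mean of 0.520 FPKM in EE_KO, Mideas passed the filter through KO alone.

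**Figure D1:**
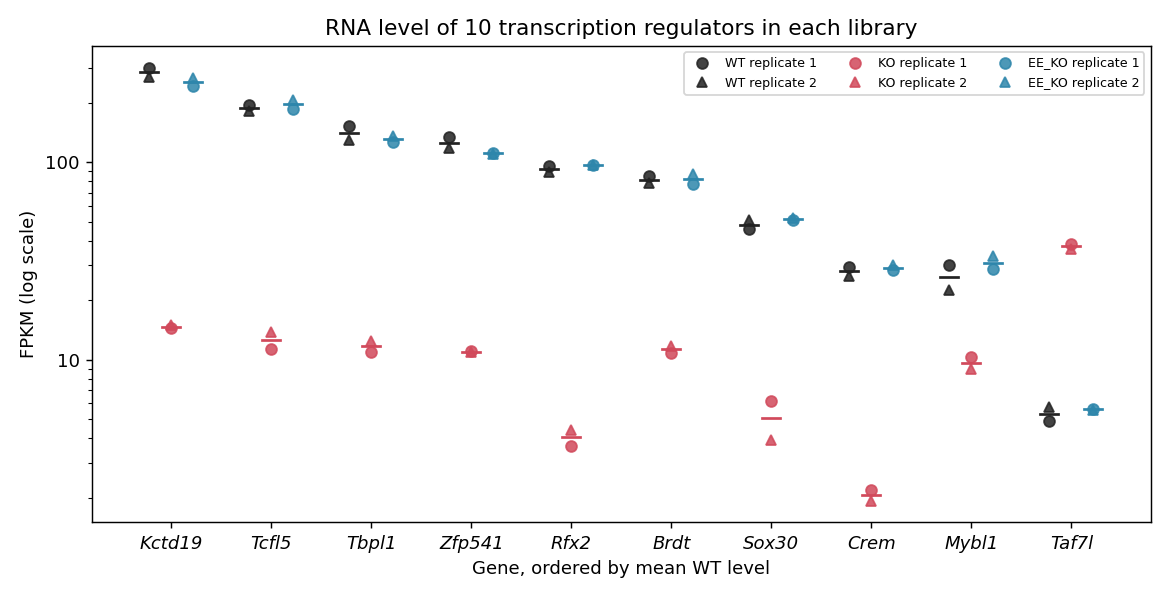
RNA level of the 10 regulators in each of the 6 libraries, in FPKM on a log axis, with genes ordered by their WT mean. Points are libraries, circles replicate 1 and triangles replicate 2, and bars are group means. KO lies below the other groups for 9 genes, down to 2.06 for Crem, and above them for Taf7l, at 37.6.

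Rfx2 (ENSMUSG00000024206, chr17:56775897-56831013, minus strand), a winged-helix factor that turns on genes of the sperm tail, had the largest fall of the set. Its levels were 96.2 and 88.9 FPKM in WT, 3.66 and 4.42 in KO and 97.2 and 96.4 in EE_KO, and both EE_KO libraries lay just above WT. The mean fell 22.9-fold, from 92.6 ± 5.199 to 4.04 ± 0.539 (log2 change -4.22, SE 0.11, limma adjusted p = 6.75e-08). The EE_KO mean was 96.8 ± 0.563. Rfx2 fell from above 95.9% of the genes tested in WT to above 44.9% of them in KO.

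Other RFX genes did not all move with it. Rfx4 went from 28.6 and 25.0 FPKM in WT to 0.530 and 0.621 in KO (log2 change -4.14, SE 0.13). Rfx1 fell by 1.56 on the log2 scale (SE 0.20), from 11.3 and 17.7 FPKM to 3.81 and 4.49, and Rfx7 rose by 0.85 (SE 0.16). Rfx3 was not called (log2 change -0.33, SE 0.18), except as a fall with voom on the recovered reads (-0.53, adjusted p = 0.0434). The 12 listed genes of the axoneme, the microtubule core of the sperm tail and a class that RFX factors are known to activate, all fell in KO. Their median log2 change was -4.53, and they kept 1.86% to 4.49% of WT. Over all genes tested 48.1% fell. Tekt1, a tektin of the doublet microtubules, fell from 232 and 215 FPKM to 4.80 and 5.78 (log2 change -5.16, SE 0.11). Tekt4, Drc1 and Tekt2 fell too, with log2 changes of -4.89, -5.04 and -4.61.

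Sox30 (ENSMUSG00000040489, chr11:45980310-46017994, plus strand) encodes an HMG box factor of spermatocytes and round spermatids. It stood at 45.9 and 50.7 FPKM in WT, at 6.17 and 3.94 in KO and at 51.1 and 52.3 in EE_KO. EE_KO lay just above WT, and the KO libraries held 332 and 205 reads of the gene. The KO mean of 5.05 ± 1.58 was 10.5% of the WT mean of 48.3 ± 3.43 (log2 change -3.05, SE 0.17, limma adjusted p = 1.42e-06). The EE_KO mean was 51.7 ± 0.874. Sox6, an HMG box gene with a short testis form, fell by 1.83 on the log2 scale (SE 0.15).

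Crem (ENSMUSG00000063889, chromosome 18) encodes the cAMP-responsive activator of spermatid genes. It stood at 29.3 and 26.7 FPKM in WT, at 2.18 and 1.93 in KO and at 28.4 and 30.1 in EE_KO, and its KO level, from 231 and 198 reads, was the lowest of the 10. The mean fell from 28.0 ± 1.87 to 2.06 ± 0.175, or 7.35% of WT (log2 change -3.25, SE 0.12, limma adjusted p = 1.71e-07), and EE_KO stood at 29.3 ± 1.20. The added 1 FPKM shrinks a change at so low a level, and with a pseudocount of 0.1 the change was -3.76. These are values of the whole gene and do not separate its activator and repressor forms.

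The cofactors of CREM fell with it. Fhl5, whose product ACT lets CREM activate without phosphorylation, went from 21.7 and 34.8 FPKM in WT to 0.808 and 0.541 in KO (log2 change -4.09, SE 0.23). Kif17, the kinesin that moves ACT out of the nucleus, went from 28.6 and 43.0 to 1.17 and 1.33 (log2 change -4.01, SE 0.19). Creb1, the widely expressed relative of Crem, rose from 1.92 and 1.40 FPKM to 3.42 and 2.74 (log2 change 0.62, SE 0.17, limma adjusted p = 0.00909). That call was lost without WT replicate 2 (adjusted p = 0.0514) or without KO replicate 1 (adjusted p = 0.0695). Of 9 known CREM targets 8 were tested and all 8 fell, where 48.1% of all genes tested fell. Their median log2 change was -6.84. The log2 change was -5.44 for Ldhc, the lactate dehydrogenase of germ cells (SE 0.16), -6.13 for Odf1 of the outer dense fibres (SE 0.27), -6.50 for Smcp of the sperm mitochondrial capsule (SE 0.28) and -7.38 for the protamine Prm2 (SE 0.34). Camk4 was below the filter. Of the targets, Tnp1, Tnp2, Prm1, Prm2 and Odf1 are also among the spermatid markers, and Ldhc is among the pachytene markers.

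Brdt (ENSMUSG00000029279, chr5:107331159-107387058, plus strand) encodes the bromodomain protein of spermatocytes and spermatids. Its levels were 85.2 and 78.2 FPKM in WT, 10.9 and 11.8 in KO and 78.0 and 87.4 in EE_KO, with WT inside the range of EE_KO. KO kept 13.9% of the WT mean, at 11.3 ± 0.652 against 81.7 ± 4.95 (log2 change -2.75, SE 0.11, limma adjusted p = 2.76e-07), and EE_KO stood at 82.7 ± 6.63. Brd2, a widely expressed gene of the same bromodomain family, fell by 0.36 on the log2 scale (SE 0.10) but was called higher with quantile normalization (0.39) and not called on the TPM scale (0.079), when scaled to Sycp1 and Sycp3 (0.036) or without WT replicate 1 (-0.29).

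Taf7l (ENSMUSG00000009596, chrX:134460118-134476490, minus strand) encodes the germ cell form of TAF7, a subunit of the general factor TFIID. It was the lowest of the 10 in WT, at 4.87 and 5.77 FPKM, and the highest in KO, at 38.8 and 36.5, and EE_KO stood at 5.66 and 5.54. The KO libraries lay above the other 4, and EE_KO lay within WT. The mean rose from 5.32 ± 0.636 to 37.6 ± 1.62 (log2 change 2.61, SE 0.13, limma adjusted p = 6.06e-07), and EE_KO stood at 5.60 ± 0.0865. In its level Taf7l moved from above 49.3% of the genes tested in WT to above 92.8% in KO.

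The X chromosome is silenced in pachytene cells by meiotic sex chromosome inactivation. In KO 395 of its 537 genes tested rose (73.6%), against 36.7% of autosomal genes. Genes low in WT and EE_KO could pass the filter through KO alone, which favours rises in both shares. Both shares were drawn on the deposited scale only. Over all genes, rises were 44.1% of the calls on that scale and 51.0% to 53.2% on the other scales. The parts of silencing and of cell makeup in the X-linked share were not tested and cannot be told apart in these bulk libraries. The rise of Taf7l was larger than the change of 71.9% of X-linked genes and of 93.7% of autosomal genes. Taf7, the autosomal relative of Taf7l, rose less, from 8.70 and 7.82 FPKM to 16.8 and 16.3 (log2 change 0.92, SE 0.12). The other X-linked genes of the TAF family rose too. Taf1, the scaffold of TFIID, went from 0.793 and 0.919 FPKM to 10.13 and 10.99 (log2 change 2.64, SE 0.18), and Taf9b from 2.22 and 2.55 to 9.50 and 7.93 (log2 change 1.52, SE 0.15). Taf1, with means of 0.856 FPKM in WT and 1.01 in EE_KO, passed the filter through its KO level. Of 13 autosomal TAF genes 4 rose, 6 fell and 3 were not called, and on the TPM scale 5 rose and 5 fell. When libraries were scaled to Sycp1 and Sycp3, 4 rose, 3 fell and 6 were not called. All 10 Sertoli markers rose in the same KO libraries (sum 341 and 349 in WT against 5001 and 4755). The sum over 8 spermatogonia markers, Kit among them, went from 20.8 and 22.4 in WT to 188 and 229 in KO. The part of either cell type in the rise of Taf7l was not tested.

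Tbpl1 (ENSMUSG00000071359, chr10:22703879-22731938, minus strand) encodes TRF2, a relative of the TATA-binding protein needed in spermatids. It stood at 153 and 129 FPKM in WT, at 10.9 and 12.4 in KO and at 126 and 136 in EE_KO, which overlapped WT. The mean fell from 141 ± 16.9 to 11.7 ± 1.06, or 8.29% of WT (log2 change -3.48, SE 0.12, limma adjusted p = 1.55e-07), and EE_KO stood at 131 ± 7.20. Tbp, the TATA-binding protein itself, fell too, from 18.9 and 16.3 FPKM to 2.69 and 2.30 (log2 change -2.41, SE 0.14). Gtf2a1l, the germ cell subunit of TFIIA that binds TRF2, had the largest fall among the partners. It went from 224 and 197 FPKM to 3.91 and 4.30 (log2 change -5.37, SE 0.11), while its somatic counterpart Gtf2a1 was at 12.3 and 11.6 in WT and 9.93 and 11.1 in KO and was not called. Tbpl2 was listed at 0 in all 6 libraries.

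**Figure D2:**
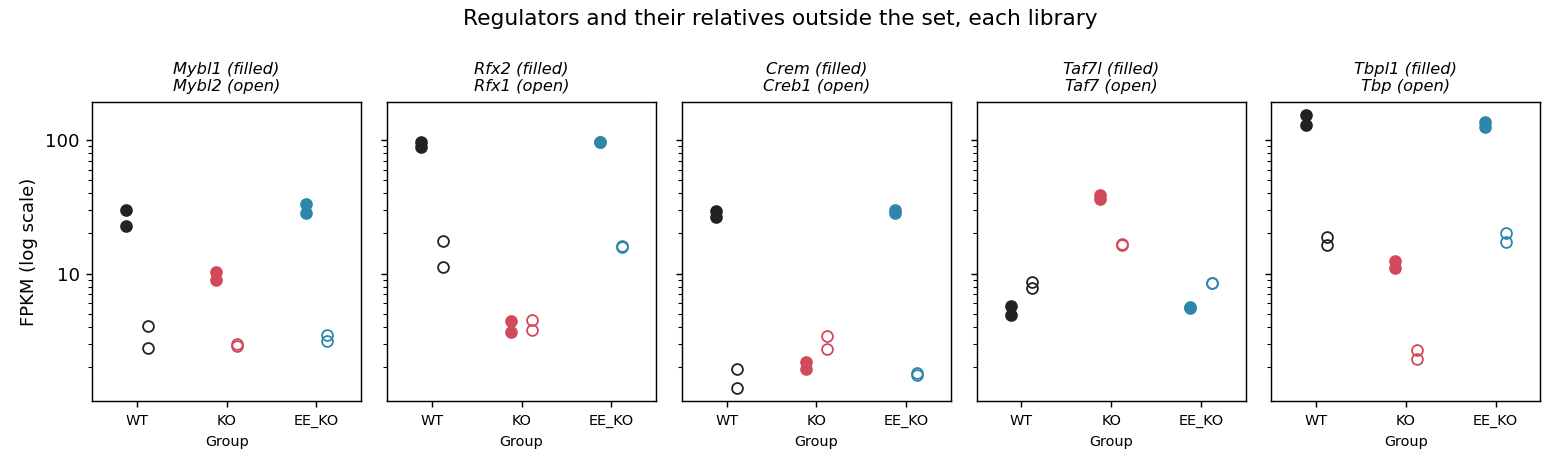
Levels of 5 regulators (filled) and of a relative of each outside the set (open), in FPKM on a log axis, for each library of WT, KO and EE_KO. Tbp and Rfx1 fall in KO with Tbpl1 and Rfx2, Creb1 rises where Crem falls, Taf7 rises less than Taf7l, and the Mybl2 libraries of WT and KO overlap.

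Over the whole set, the fit called 9 falls and 1 rise in KO against WT, with a median log2 change of -3.32. The median over all genes tested was -0.29. The libraries of KO and WT did not overlap for any of the 10, as was so for 93.4% of all genes. The size of the falls placed 8 of the 9 low among all genes: Rfx2 lay above 4.31% of the changes of all genes and Brdt above 12.9%, whereas Mybl1 lay above 31.5%. Every direction and every call held in KO against WT under each of the 18 alternative settings tried, the scalings among them, with log2 changes between -1.55 and -0.96 for Mybl1 and between 2.51 and 3.19 for Taf7l.

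In EE_KO against KO the set mirrored this, with 9 rises and 1 fall and a median log2 change of 3.27. This comparison shares the KO libraries with the one above, so the pair are not independent. The background was 47.8% of genes that rose and 37.9% that fell, and the groups did not overlap for any of the 10 (93.6% of all genes). Rfx2 rose by 4.28 (SE 0.11), Kctd19 by 4.03 (SE 0.11) and Tcfl5 by 3.87 (SE 0.12) on the log2 scale, the rise of Mybl1 was 1.59 (SE 0.16), and Taf7l fell by 2.55 (SE 0.13). The adjusted p of limma ran from 7.85e-08 to 3.14e-05 over the 10.

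In EE_KO against WT none of the 10 was called by limma, and none had an unadjusted p below 0.05. Over all genes 0.0456% were called, or 7 genes (4 higher and 3 lower), and 1150 had an unadjusted p below 0.05, so few genes of any kind were called. The log2 differences of the 10 ran from -0.18 (Zfp541) to 0.24 (Mybl1), with adjusted p from 0.790 to 0.986 and 95% intervals that together span -0.42 to 0.61. Smaller differences than these intervals could not be told from 0 with 2 libraries per group. Libraries of EE_KO and WT did not overlap for 4 of the 10, Zfp541 and Kctd19 below WT and Rfx2 and Sox30 above it, against 36.5% of all genes. The sum of the 10 genes was 1075 and 969 FPKM in WT, 120 and 119 in KO and 955 and 1028 in EE_KO.

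**Figure D3:**
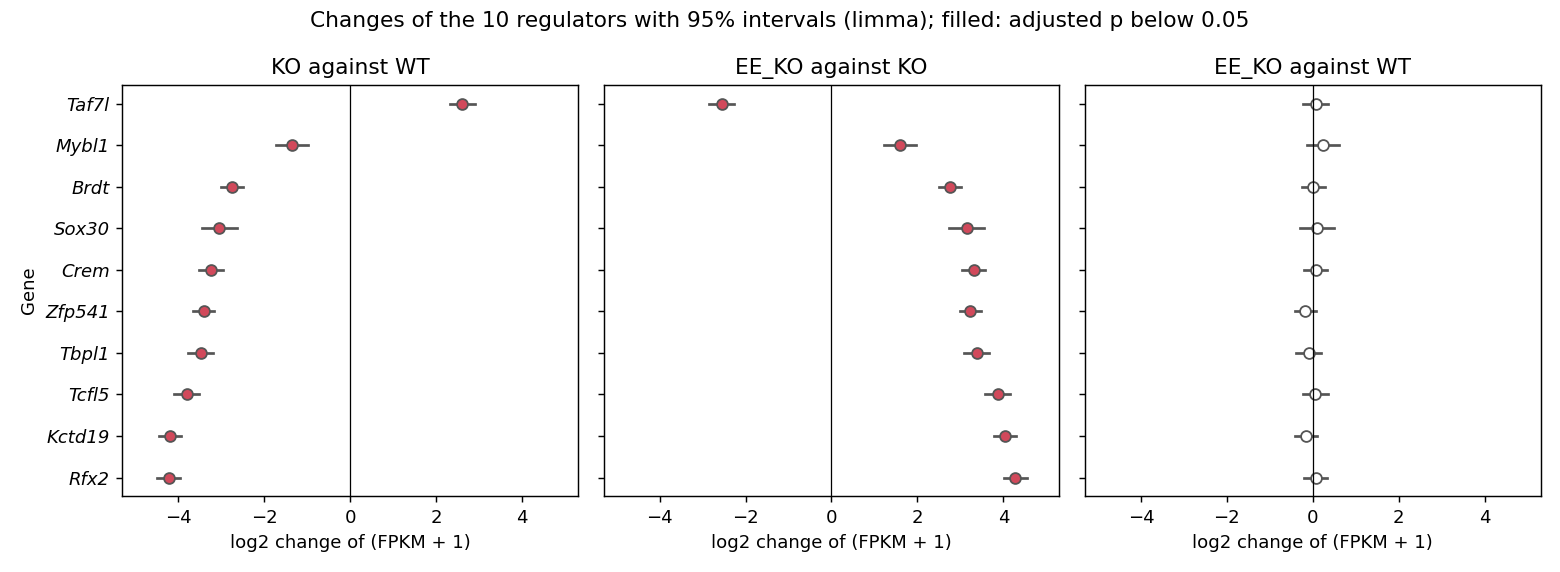
Change of each regulator on the log2(FPKM + 1) scale in the 3 comparisons, with 95% intervals from limma and filled points at an adjusted p below 0.05. KO against WT runs from -4.22 (Rfx2) to 2.61 (Taf7l), EE_KO against KO from -2.55 to 4.28, and all 10 intervals of EE_KO against WT include 0.

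The order of the levels changed with the group. In WT it ran Kctd19, Tcfl5, Tbpl1, Zfp541, Rfx2, Brdt, Sox30, Crem, Mybl1 and Taf7l. Neighbours in this order did not overlap between libraries, except Tbpl1 with Zfp541 and Crem with Mybl1. The same order held in EE_KO apart from Mybl1 and Crem, which changed places and overlapped. In KO Taf7l came first, then Kctd19, then Tcfl5, Tbpl1, Brdt and Zfp541, each of which overlapped the next, then Mybl1, then Sox30 and Rfx2, which overlapped, and Crem last. Kctd19 lay above 99.2% of the genes tested in WT and above 77.7% in KO.

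The levels were also set against Sycp1 and Sycp3, genes of the synaptonemal complex that are made from early prophase on. Sycp1 stood at 43.2 and 47.9 FPKM in WT and at 37.99 and 41.9 in KO and was not called (log2 change -0.19, limma adjusted p = 0.216), but was called higher in KO after quantile normalization (0.45). Sycp3 stood at 74.0 and 72.8 in WT and at 42.4 and 54.9 in KO, a fall of 0.60 on the log2 scale (SE 0.13) that was called on the deposited scale but not on the TPM scale or after quantile normalization. Per unit of the mean FPKM of this pair, KO still kept 5.86% of WT for Rfx2, 6.98% for Kctd19, 8.97% for Tcfl5, 10.01% for Crem and 18.7% for Brdt. Mybl1 kept 49.8% by this measure, and Taf7l stood at 962% of WT. Scaled to this pair, the fit still called 9 falls and 1 rise among the 10. The pair was chosen after its values were seen, and it kept more of its WT level than any other of the 10 pachytene markers. In KO Sycp1 kept 87.6% and Sycp3 66.2% of WT. The median of the 10 markers was 2.86%, below the 8.50% of the regulators. Scaling to other pachytene markers was not tried.

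**Figure D4:**
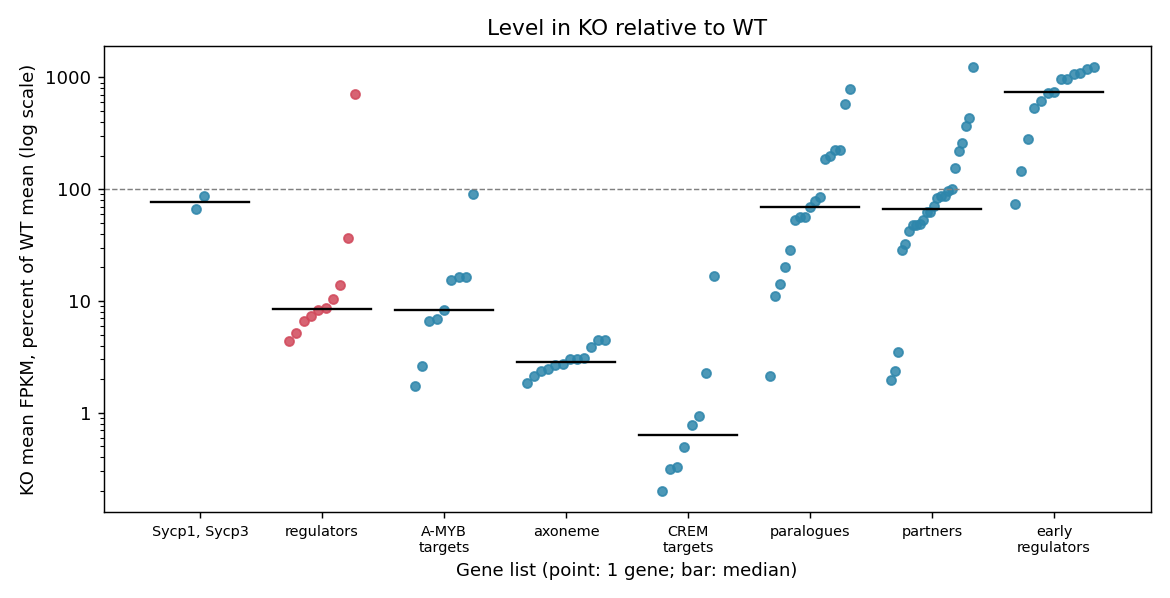
KO mean as a percentage of the WT mean for each tested gene of 8 lists, on a log axis, with bars at list medians and a dashed line at equal levels. The regulators (red) have a median of 8.50%, near the 8.30% of the A-MYB targets and above the 2.86% of axoneme genes and 0.635% of CREM targets, while early germ cell regulators have a median of 739%. Some of these early regulators passed the filter through KO alone, among them Lin28a, which sets their median.

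Regulators of earlier germ cells went the other way from the 9. Of 13 genes that act in spermatogonia or at the entry into meiosis, 11 rose in KO, 1 fell and 1 was not called. Over all genes tested 38.0% rose. The median log2 change of the 13 was 1.79. The filter favoured rises here. Zbtb16, Foxo1, Sall4, Lin28a and Prdm9 had WT and EE_KO means below 1 FPKM and passed it through KO alone. Stra8, the retinoic acid target that starts meiosis, rose from 1.54 and 1.69 FPKM to 17.6 and 22.4 (12.4-fold higher), and its partner Meiosin rose by 2.16 (SE 0.14). Foxo1 and Zbtb16, factors of spermatogonia, rose by 2.11 (SE 0.17) and 1.77 (SE 0.14). The fall was that of Id4 (log2 change -0.42, SE 0.11), which was not called on the TPM scale (-0.012) or with quantile normalization (-0.13), and Ctcfl was the gene not called (log2 change 0.32, but called as a rise of 0.82 on the TPM scale and 0.66 with quantile normalization). Zbtb16, Sohlh1, Dmrt1 and Stra8 are also among the spermatogonia markers, whose sum went from 20.8 and 22.4 to 188 and 229, and the part of cell makeup in these rises was not tested.

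Of 6 further regulators of late stages, 5 fell and 1 rose, where 48.1% of all genes tested fell and 38.0% rose. Hsf5, a heat shock factor of spermatocytes, fell from 107 and 89.5 FPKM to 6.43 and 6.71 (log2 change -3.71, SE 0.12). Ybx2, which stores germ cell mRNA, had a log2 change of -3.99 (SE 0.14), Zmynd15, a repressor in spermatids, of -4.10 (SE 0.11) and Spz1 of -6.24 (SE 0.26). Hsf2 rose slightly, from 2.75 and 3.58 FPKM to 4.56 and 4.48 (log2 change 0.41, SE 0.16, limma adjusted p = 0.0385), a call lost without WT replicate 1 (adjusted p = 0.180), KO replicate 1 (0.134) or KO replicate 2 (0.115). In EE_KO against WT no gene of these lists, nor of the targets, relatives and partners, was called.

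Across the relatives as a whole, 17 of 19 were tested, and 6 rose, 9 fell and 2 were not called in KO (median log2 change -0.36). Of the 24 partners 6 rose, 12 fell and 6 were not called (median -0.46). Over all genes tested 48.1% fell and 38.0% rose, and the counts of the 2 lists were not tested against these shares. Both medians lay nearer to the -0.29 of all genes tested than the -3.32 of the 10 regulators did. Some of the rises, Mideas among the relatives and Taf1 among the partners, were of genes that passed the filter through KO alone.

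The WT libraries differed from each other in spermatid RNA. The regulators stood apart from that difference in WT, but not clearly in EE_KO. The summed FPKM of 10 spermatid markers was 1405 in WT replicate 1 and 2983 in WT replicate 2. It was 15.2 and 16.2 in KO and 1763 and 2551 in EE_KO. Replicate 2 over replicate 1 of WT gave ratios of 1.32 to 2.45 for these markers, with a median of 1.64. For the 10 regulators the ratio ran from 0.752 (Mybl1) to 1.18 (Taf7l), with a median of 0.914, close to the axoneme genes (median 0.896) and the A-MYB targets (median 0.946). CREM targets had a median of 1.91, and Crem itself stood at 0.910. These targets share Tnp1, Tnp2, Prm1, Prm2 and Odf1 with the spermatid markers, so the 2 lists are not separate. In EE_KO the ratio of replicate 2 to replicate 1 ran from 0.978 to 1.17 for the regulators (median 1.07). For the spermatid markers it ran from 0.957 to 1.61 (median 1.24), so there the ranges overlapped.

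**Figure D5:**
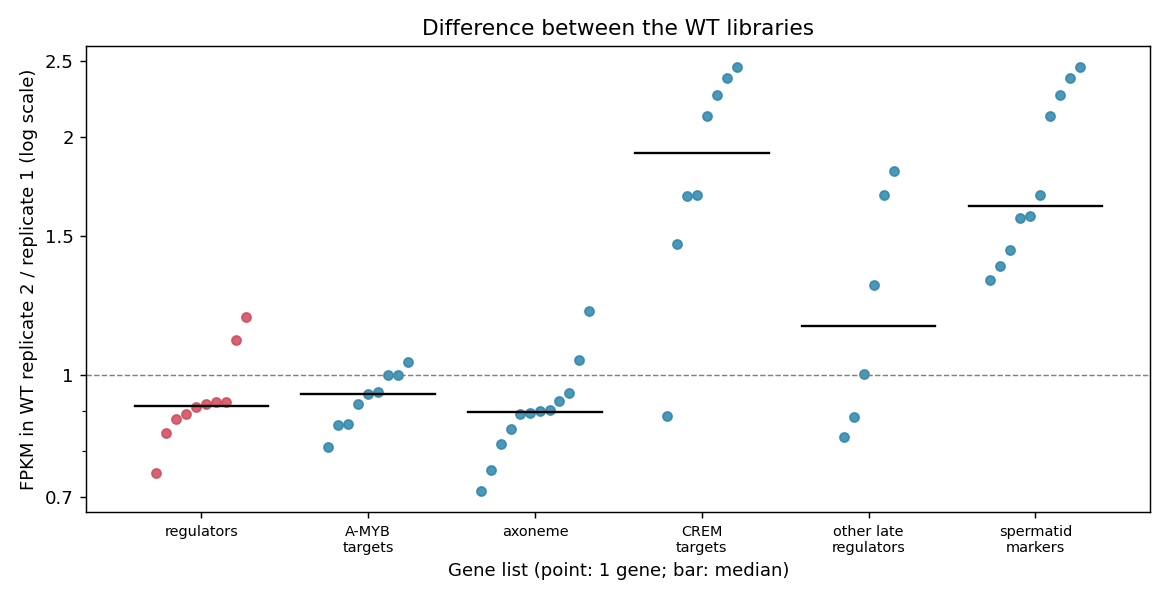
Ratio of WT replicate 2 to WT replicate 1 for each tested gene of 6 lists, on a log axis, with bars at list medians and a dashed line at equal levels. The regulators (red) lie between 0.752 and 1.18, while all 10 spermatid markers lie above 1.3.

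For each regulator the protein-coding genes with the most similar profile over the 6 libraries were found among 12171, by the root mean square distance between mean-centred log2(FPKM + 1) values. Crlf3 (distance 0.058) and Kit were among the nearest to Taf7l. The nearest to Zfp541 were Pde4dip (distance 0.027), Pomt1 and Phf2, and the nearest to Tcfl5 were Fam107b (0.028), Acot7 and Elof1. Brdt was closest to Amz2 (0.030), Pias2 and Ttc30a1, and Tbpl1 to Cep72 (0.032), Txnrd3 and Chrac1. Kctd19 had Dnhd1 (0.040), Prr19 and Nxn as neighbours, and Rfx2 had 4931440F15Rik (0.044), Ccdc30 and Ypel1. Mybl1 was nearest to Smurf2 (0.050), Phf10 and Gm10375, and Crem to Ubl7 (0.061), Zfp438 and Boll. Sox30 had no gene within 0.1, its nearest being Gm5800 (0.11), Lpin1 and Coq4, whereas 82 genes lay within 0.1 of Brdt. Within the set the closest pair was Zfp541 with Tbpl1 (0.092). With 6 libraries in 3 groups, such a profile is in the main a KO level against the other 4 libraries.

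Reads of some neighbours could not be told apart from the regulators, since no source used here gives the strand of the reads. Tcfl5 shares 234 exon bases with Col9a3, Kctd19 shares 56 with Plekhg4, Crem shares 472 with Gm6225 and Tbpl1 shares 407 with Slc2a12, each on the opposite strand. The highest level of these neighbours in any library was 12.9 FPKM, for Plekhg4.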

How the data were processed

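RNA-seq libraries of STA-PUT purified pachytene cells (3 groups, 2 libraries each) were made from total RNA with a SMARTer kit, per the labels' protocols. The deposited tables hold FPKM for 54532 Ensembl genes in each library, per the file headers. The builds GRCm38 and mm10 are named in the submitters' processing notes; aligner, counter and strand: not given in the sources used here. For symbols, positions and exon lengths GENCODE M21 was used, where 54495 of the genes were found. FPKM times exon length gave whole reads for 96.8% to 97.0% of values above 0 (tolerance 0.01).

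Genes with a mean of at least 1 FPKM over the 6 libraries were tested, without 533 short RNAs and 9 lower entries of repeated symbols, which left 15365. Limma 3.58.1 (R 4.3.3) was fitted to log2(FPKM + 1) of all 6 libraries with a mean-variance trend and no replicate block. A gene low in WT and EE_KO could pass the filter through KO alone. On simulated data the fit called 46% of 2-fold rises, 30% of falls to 0.5 of the level, 100% of 4-fold rises and 98% of falls to 0.25. In that simulation only a small part of the genes changed, at a fixed spread. In KO against WT most genes were called, so these rates need not hold there. The alternatives were other pseudocounts, filters, scalings and models, each library left out in turn, and, added after the data were seen, voom on the recovered reads and scaling to Sycp1 and Sycp3.

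The members and lists were chosen with earlier results of these data known. The lists were relatives, partners, A-MYB targets, CREM targets, axoneme genes, early and other late regulators, and markers of Sertoli, Leydig, peritubular and leukocyte, spermatogonial, pachytene and spermatid cells. Genes named are the members, the MAPS gene, up to 4 called genes with the smallest p of each list, genes that moved against their list, fixed relatives and partners, and the 3 nearest profiles; some genes that this rule names are not reported here. Sycp1, Sycp3, Mov10l1, Taf9b, Gtf2a1, Rfx7, Ctcfl, Sohlh1, Dmrt1, C1qa, Cd14, Gfra1 and Adgre1 were named after their values were seen. So were Sall4, Lin28a, Prdm9, H1f6, Tnp1, Tnp2 and Prm1. Python 3.11.15, pandas 2.3.3, numpy 2.4.6 and matplotlib 3.10.9 made the tables and figures.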

Additional observations from a re-analysis of the deposited data

How the results depend on the processing

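The calls of the 10 regulators (10 in KO against WT, 0 in EE_KO against WT and 10 in EE_KO against KO) held under all 18 alternatives, and all 180 alternative log2 changes of each comparison with KO kept their direction and call. In EE_KO against WT 167 of 180 did so, and 13 changed sign near 0 with no call. Scaling to Sycp1 and Sycp3 gave -0.084 for Tcfl5, -0.082 for Rfx2, -0.083 for Crem, -0.081 for Taf7l, -0.049 for Sox30 and -0.13 for Brdt, and quantile normalization gave 0.012 for Tbpl1. With 1 library left out in turn the value ran from -0.017 to 0.14 for Tcfl5, -0.0016 to 0.13 for Crem, -0.064 to 0.098 for Brdt, -0.037 to 0.17 for Taf7l and -0.22 to 0.023 for Tbpl1; the cause was not tested. Where a group was left with 1 library, that library was assumed to vary like the other groups. Over all genes, a minimum of 5 FPKM tested 8767 genes and called 7704 in KO against WT (13238 before) and 7655 in EE_KO against KO (13153 before). In EE_KO against WT the 7 calls became 4 with a pseudocount of 0.5, 0 with no filter, 2 with a minimum of 5 FPKM, 0 in a model of these groups only, 0 to 19 without 1 library, and 137 when scaled to Sycp1 and Sycp3. Voom on the recovered reads called 13222, 9 and 13149 genes. The median change of all genes in KO against WT was -0.29 on the deposited scale, 0.17 for TPM, 0.03 for quantile normalization and 0.11 when scaled to Sycp1 and Sycp3; the share of rises among calls went from 44.1% to 53.2%, 51.0% and 52.0% in that comparison, and from 55.8% to 47.0%, 48.4% and 44.0% in EE_KO against KO. The replicate block left the regulators at 10, 0 and 10 calls and all genes at 13222, 2 and 13103. Same-numbered libraries deviated with correlations of -0.03, 0.05 and 0.09. With 2 libraries per group these values cannot show whether such libraries shared a day or mice, which the labels do not say.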
